A study of Danio rerio with 4 samples.

Results

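The genes described here encode proteins that turn absorbed light into an electrical signal in rods and cones of the zebrafish retina. They were chosen by name as 8 genes, with earlier results of these data known. Every array probe whose RefSeq accession belongs to one of them was taken. This gave 20 probes, 4 of 2 rod genes (gnat1 and pde6a) and 16 of 6 cone genes (gnat2, gnb3b, pde6c, pde6ha, grk7a and arr3a), among 13366 genes named on the array. RNA of whole zebrafish embryos (Danio rerio) was hybridised to 1-colour Agilent arrays, 1 array for each of 4 groups. These were embryos kept in 3.9 µM copper and taken at 96 hours post fertilization (hpf), control embryos without added copper at 96 hpf, embryos in 3.9 µM copper at 24 hpf, and control embryos at 24 hpf. The strain, and the number of embryos behind each RNA, are not given in the sources used here.

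In a photoreceptor, light-activated opsin switches on the G protein transducin, which frees the effector enzyme phosphodiesterase 6 from its inhibitory gamma subunits. The enzyme breaks down cGMP, cation channels held open by cGMP close, and the cell hyperpolarizes. Opsin kinases and arrestins then shut the opsin off. Rods and cones use separate paralogs at most of these steps, rods serving dim light and cones daylight and colour. In zebrafish the cones work early in larval life and rods contribute to vision later, while photoreceptors of the pineal organ appear in the first day.

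The names of the scanner files swap copper and control relative to the sample labels. The authors' deposited table swaps them too in its fold changes, where all 5555 probes compared at 24 hpf and all 2964 at 96 hpf had the reverse sign. Groups follow the sample labels, and "copper" and "control" below mean the arrays labelled so. If the file names are right, every copper difference changes its sign and the age differences do not. The median processed signal was 190.2 on the copper and 194.4 on the control array at 96 hpf, and 366.4 and 162.2 on the corresponding 24 hpf arrays. Because the 24 hpf arrays differed in overall brightness, differences between arrays are given after quantile normalization, on the log2 scale. With 1 array a group, a copper difference at a single age has no replicate check and no p-value. In RNA of whole embryos, a different number of photoreceptors and a different amount of RNA per photoreceptor cannot be told apart.

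**Figure D1:**
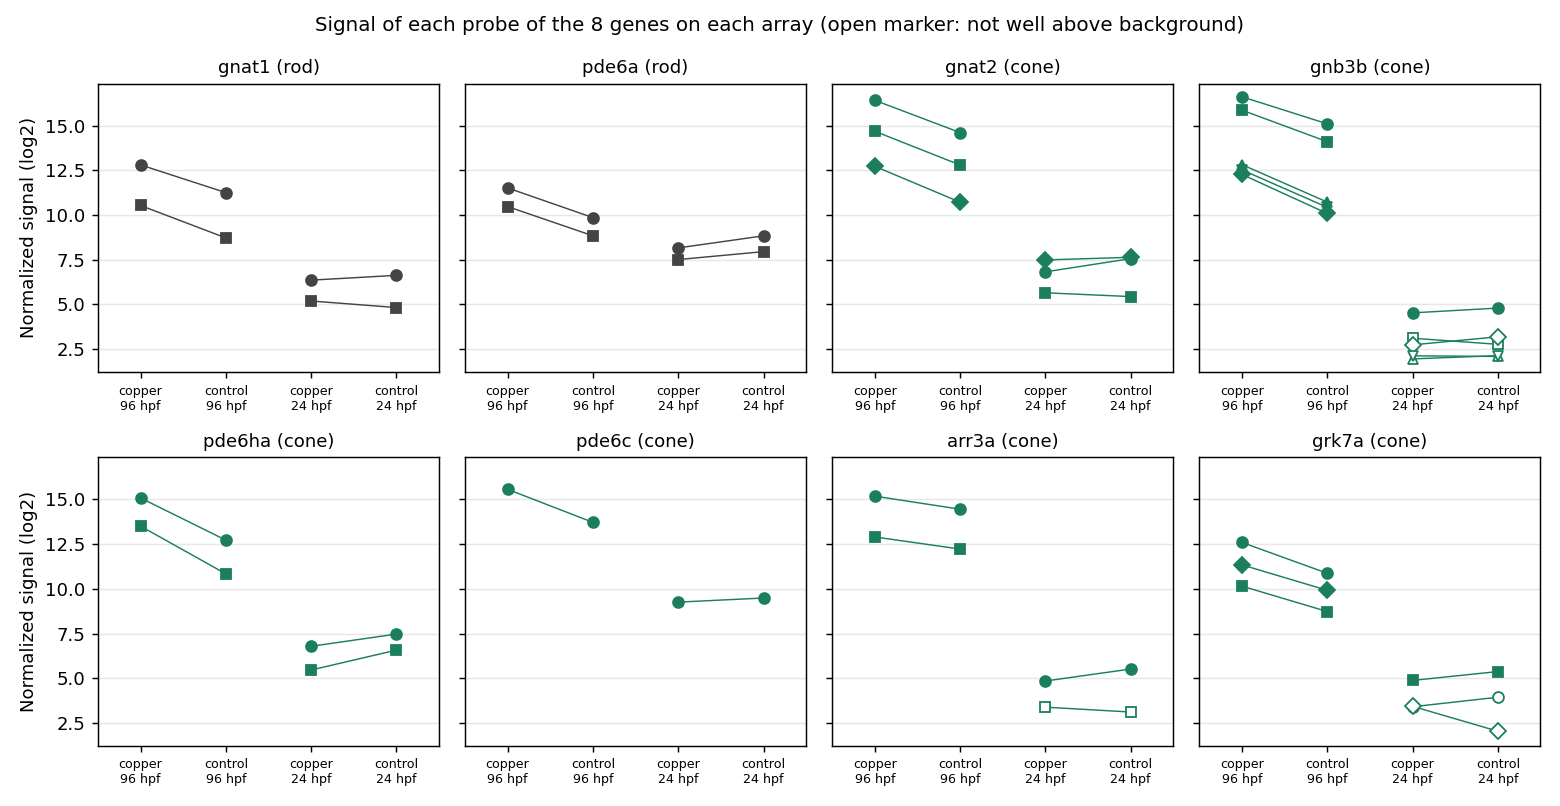
Quantile-normalized signal (log2, vertical axis) of every probe of the 8 genes on the 4 arrays (horizontal axis), with 1 marker shape per probe within a gene and lines joining copper and control of an age. All 20 probes lie higher on the copper than on the control array at 96 hpf, and 7 probes of gnb3b, arr3a and grk7a are open at 24 hpf because they were not well above background there.

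At 96 hpf all 20 probes were higher in copper than in control larvae, 18 of them by 2-fold or more, where 5.2% of all 36026 probes compared were. By the brightest probe of each gene, 7 of 8 genes were higher by 2-fold or more, where 5.67% of the 12332 genes measured on the array were. None of the 8 was lower by 2-fold, where 2.16% of all genes were. The median difference of the 8 genes was 1.69 (log2), against -0.05 over all genes. Rod and cone genes shared this direction, with pde6ha the most different and the arrestin arr3a the least. No test is possible for a pair of arrays. Because the genes were chosen with earlier results of these data known, the shares over all genes are a description and not a test.

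Among the transducin subunits, gnat1 encodes the rod alpha subunit, which carries the signal from rhodopsin. Its brighter probe had a processed signal of 5687 in copper and 1978 in control larvae at 96 hpf, and 134.8 in copper and 71.7 in control embryos at 24 hpf. The other gnat1 probe had 1211 and 368.0 in copper and control larvae, and 58.6 and 20.3 in copper and control embryos. Both probes were therefore high in the 96 hpf arrays and highest in copper larvae, by 1.55 and 1.81 after normalization (log2).

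The cone alpha subunit gene gnat2 was read by 3 probes. The brightest had 76246 in copper and 20071 in control larvae, and 188.0 in copper and 140.9 in control embryos. The next had 21574 in copper and 5649 in control larvae, and the third 5424 and 1379 in the same order of groups. The 3 copper differences at 96 hpf lay close together, at 1.81, 1.89 and 2.01 (log2), so the probes of gnat2 gave nearly the same difference at signals far apart.

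The beta subunit gene gnb3b, whose product pairs with the cone alpha subunit, was read by 5 probes. Its brightest had 88840 in copper and 28711 in control larvae, and 37.0 in copper and 19.9 in control embryos. The other 4 probes were dim at 24 hpf, with no signal well above background in copper or control embryos. At 96 hpf all 5 were higher in copper, from 1.51 on the brightest probe to 2.18 (log2), which corresponds to 2.86-fold to 4.54-fold.

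Phosphodiesterase 6 is built from catalytic and inhibitory gamma subunits. The rod catalytic gene pde6a was the member with the least contrast between ages. Its brighter probe had 2366 in copper and 776.6 in control larvae, and 484.1 in copper and 368.8 in control embryos. Both pde6a probes were higher in copper at 96 hpf, by 1.66 and 1.63 (log2).

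The cone catalytic gene pde6c has a single probe here, which had 42533 in copper and 10551 in control larvae, and 1023 in copper and 602.4 in control embryos. Its copper difference at 96 hpf was 1.85 (log2), or 3.61-fold.

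The cone inhibitory gamma subunit gene pde6ha differed most by copper label. Its brighter probe had 28926 in copper and 5315 in control larvae, and 182.8 in copper and 131.3 in control embryos. The other probe had 9324 and 1495 in copper and control larvae, and 70.4 and 68.7 in copper and control embryos. After normalization these were 5.13-fold and 6.36-fold higher in copper at 96 hpf, the only brightest probe of the 8 genes past 4-fold, where 1.60% of all genes were. An additional probe carries an expressed-sequence accession and no RefSeq accession, so it is not counted as a member. The authors' deposited table names it pde6h, an older symbol of pde6ha. It was 2.42 (log2) higher in copper larvae, with 30056 in copper and 5236 in control larvae.

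The shutoff step is represented by a kinase and an arrestin. The cone opsin kinase gene grk7a had 4950 in copper and 1532 in control larvae on its brightest probe, which was dim in embryos of both groups (17.6 in copper and 11.0 in control embryos at 24 hpf). Its 3 probes were higher in copper larvae by 1.42 to 1.73 (log2).

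Cone arrestin arr3a, whose product binds phosphorylated cone opsin, stood apart from the other genes. Its brighter probe had 31200 in copper and 18018 in control larvae, and 46.2 in copper and 32.7 in control embryos. The dimmer probe had 6054 in copper and 3805 in control larvae. Both differences at 96 hpf, 0.73 and 0.68 (log2), were below 2-fold.

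**Figure D2:**
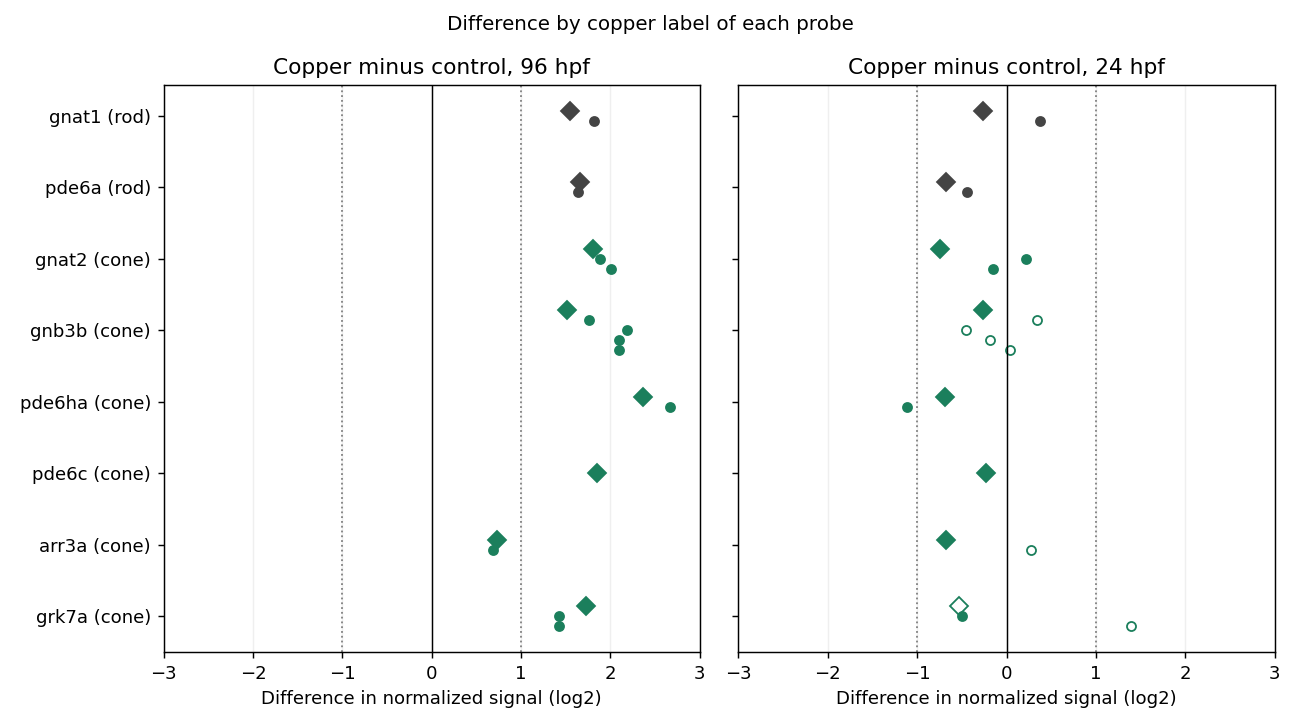
Copper minus control difference in normalized signal (log2, horizontal axis) of each probe at 96 hpf (left) and 24 hpf (right), with genes on the vertical axis. Diamonds are the brightest probe of a gene, open markers were not well above background on both arrays of that age, and dotted lines mark 2-fold. At 96 hpf the probes lie between 0.68 and 2.67, and at 24 hpf they lie on both sides of 0.

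Rod and cone genes overlapped in their copper difference at 96 hpf. The 4 rod probes lay between 1.55 and 1.81 (log2) and the 16 cone probes between 0.68 and 2.67, with 3 of the cone probes inside the range of the rod probes. By brightest probes the median was 1.61 for the 2 rod genes and 1.77 for the 6 cone genes. With 2 genes on the rod side, rod and cone responses were not tested against each other.

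At 24 hpf the copper differences were small, and their sign varied with the probe and the scaling. The brightest probes of all 8 genes lay below 0, with differences of -0.23 (pde6c) to -0.74 (gnat2) on the log2 scale, and that of grk7a was dim in both groups. By 2-fold 0 of 8 passed, where 3.58% of all genes were higher and 6.13% lower. Of all genes 71.0% lay below 0 at this age, and their median was -0.26, against -0.60 for the 8 genes. Without normalization all 20 probes were brighter in copper embryos, as was the array as a whole. Under scaling by the 75th percentile, 5 of the 8 brightest probes remained below 0, while gnat1, gnb3b and pde6c differed by 0.15, 0.13 and 0.001. 

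Probes of the same gene also disagreed at 24 hpf. Of the 13 probes well above background on both 24 hpf arrays, 11 lay below 0, as did 57.0% of all probes, and the second probes of gnat1 (0.37) and gnat2 (0.21) lay above 0. The dimmer pde6ha probe was the only one of these 13 lower by 2-fold (-1.11), where 6.1% of all probes were, and 0 were higher, where 9.45% were. Unlike the 13, the shares over all probes include probes that were dim at 24 hpf. With 75th-percentile scaling the pde6ha value became -0.73, and with normexp correction of the background -0.53. A grk7a probe that was dim in both embryo groups differed by 1.39 and cannot be read as a change.

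The authors' deposited table lists 18 of the 20 probes at 96 hpf, all but those of arr3a, and 2 probes at 24 hpf. The authors' deposited table lists 6.8% of all probes at 96 hpf and 12.7% at 24 hpf. Turned to the sample labels, its log2 differences at 96 hpf run from 1.42 for grk7a to 2.67 for pde6ha. In the authors' deposited table (genome build Zv9) the brightest gnat2 probe lies at chr8:26078561-26078620 and the brightest gnb3b probe at chr19:5730452-5730511. The same table places the pde6c probe at chr12:5703943-5704002 and the brightest grk7a probe at chr2:16364651-16364710. The brighter pde6a probe is at chr14:26083543-26083602 and the brighter pde6ha probe at chr6:269187-269246 in the authors' deposited table. The brighter gnat1 probe spans chr6:42858447-42861027 there, longer than a probe of this array.

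Signals of all 8 genes were higher at 96 than at 24 hpf. Age and copper label were fitted as additive terms with limma, which leaves a single residual degree of freedom with 4 arrays. All 20 probes were called higher at 96 hpf (Benjamini-Hochberg adjusted p under 0.05), where 14.9% of all probes tested were. Of the 20, 13 were well above background on all 4 arrays. The other 7, the brightest of grk7a among them, were dim on both 24 hpf arrays and passed the filter through the 96 hpf arrays alone. The calls of these 7 rest on unreliable 24 hpf values and add no support. By brightest probe 8 of 8 genes rose, where 17.3% of all genes did and 15.1% fell, and the median difference was 7.42 (log2), or 7.27 with grk7a at its bound, against -0.10 over all genes. Each age holds 1 copper and 1 control array, so swapping the treatment names within an age leaves the age difference as it is. The labels do not say whether the arrays held separate pools of embryos, and the p-values then cover no more than the spread among these 4 arrays. That spread is moderated in limma towards the spread of all probes tested, so a standard error can understate that of a single gene. For pde6ha the SE was 0.62, while its copper difference changed by 3.04 (log2) between the ages, a change that the additive model treats as residual.

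Of the 7 brightest probes measured on all 4 arrays, that of gnb3b rose most, by 11.20 (log2, SE 0.49, limma adjusted p = 4.05e-07). Arrestin arr3a rose by 9.64 (SE 0.47, limma adjusted p = 7.52e-07) and gnat2 by 8.33 (SE 0.54, limma adjusted p = 5.04e-06). The other gnat2 probes rose by 8.20 and 4.16, so the size of the gnat2 rise depended on the probe. On its brightest probe grk7a, not well above background at 24 hpf, was at least 218.3-fold higher at 96 hpf. This bound holds for the log2 mean of the copper and control arrays, not for each of them. Its probe measured on all 4 arrays rose by 4.32 (limma adjusted p = 0.00039). Likewise a dimmer gnb3b probe was at least 2084-fold higher at 96 hpf by the mean of copper and control, because its 24 hpf signal was not well above background.

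Among the phosphodiesterase genes, pde6ha rose by 6.78 (SE 0.62) and pde6c by 5.27 (SE 0.47), with limma adjusted p-values of 4.82e-05 and 4.23e-05. The rod genes lay at the lower end, gnat1 with a rise of 5.54 (SE 0.52, limma adjusted p = 5.45e-05) and pde6a with 2.19 (SE 0.56, limma adjusted p = 0.0146). The call of pde6a was lost without a filter on dim probes (adjusted p = 0.0887) and, in a fit of age alone, without the copper 24 hpf array (0.146), the control 24 hpf array (0.0727) or the copper 96 hpf array (0.134).

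**Figure D3:**
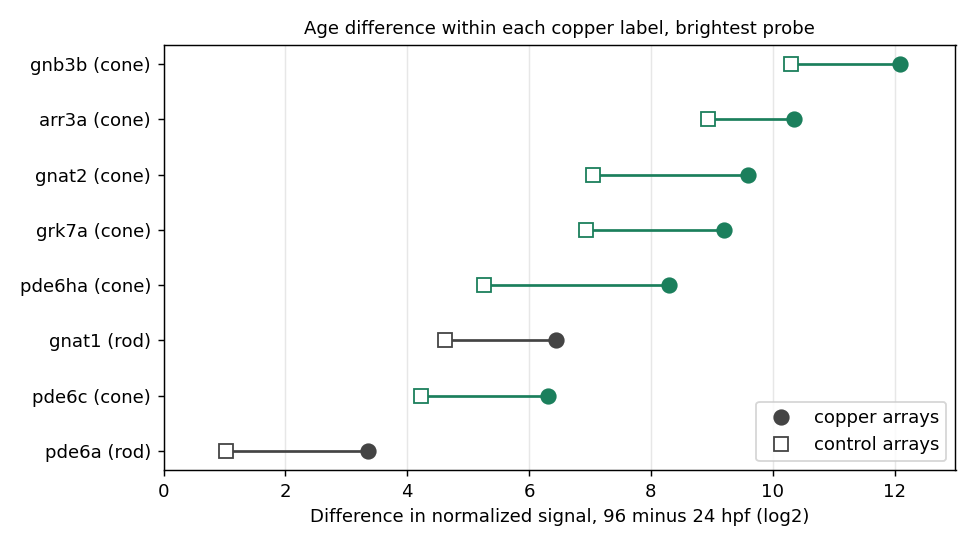
Difference in normalized signal between 96 and 24 hpf (log2, horizontal axis) for the brightest probe of each gene (vertical axis), separately for the copper arrays (filled circles) and the control arrays (open squares). The grk7a probe was dim at 24 hpf in both groups, so its points are not exact. Every gene lies above 0 in both pairs, from 3.36 in copper and 1.02 in control for pde6a to 12.09 in copper and 10.31 in control for gnb3b.

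The ranges of the rod and cone genes overlapped in the size of the rise. Counting only probes that no array left dim, the 4 rod probes rose by 1.92 to 5.54 (log2) and 9 cone probes by 4.16 to 11.20. The cone gene pde6c, at 5.27, lay below the rod gene gnat1, and the pde6a probes lay below each of those 9 cone probes. Of the neighbours in this order, pde6c and gnat1 differed by less than their standard errors, and the brightest grk7a probe has a lower bound and no place beside gnat2.

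For each gene the rise was larger between the copper arrays than between the control arrays. The difference in copper and in control was 9.60 and 7.05 for gnat2, 8.30 and 5.26 for pde6ha, 6.45 and 4.63 for gnat1, and 10.34 and 8.94 for arr3a (log2). This contrast is the same quantity as the difference between the copper effects at the 2 ages, and the 4 arrays leave no test of it. The same limma model asked for a like copper difference at both ages and called 0 of the 20 probes (smallest adjusted p = 0.9999), where it called 0% of all probes. In that limma model 1 of the 20 probes, a grk7a probe that was dim at 24 hpf, had an unadjusted p under 0.05, as did 710 of 36026 probes in all.

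Other genes of the cascade and of the same gene families were compared from a list of 51. Of these, 28 were well above background on at least 2 arrays. A part in photoreceptors was not tested for each of them. At 96 hpf 15 of the 28 were higher in copper by 2-fold or more and 0 lower, with dim probes set at their bounds, where 5.51% and 1.67% of all genes were. Their median was 1.14 (log2). At 24 hpf 0 of the 26 measured on either array were higher and 3 lower by 2-fold, where 3.09% and 5.86% of all genes were. The 3 were gnb3a (-1.05), guca1c (-1.39) and grk1b (-1.09), and 0 of them stayed past 2-fold under 75th-percentile scaling or normexp. Under the first of these gucy2d and gnb5a were instead higher by 2-fold. With age 21 of the 28 rose and 0 fell.

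Among paralogs of the 8 genes, the beta subunit gene gnb3a was lower in copper larvae on both of its probes, by 0.90 and 0.88 (log2), with 7439 in copper and 13910 in control larvae on the brighter, while all 5 probes of gnb3b were higher. Both genes were called higher with age, gnb3a by 7.26 (limma adjusted p = 2.27e-06). Because beta subunits of this family are similar in sequence, cross-hybridisation between probes of gnb3a and gnb3b is possible and was not tested.

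The gamma subunit genes of phosphodiesterase 6 also differed among themselves. In copper and control larvae pde6ga had 1282 and 159.7, a difference of 3.16 (log2), and pde6hb had 66726 and 13842, a difference of 2.17 on its brighter probe. The gene pde6gb, a paralog of pde6ga, had 959 in copper and 935.9 in control larvae, a difference of 0.06. Transducin gamma subunits were higher in copper, gngt1 (rod type) by 1.68 and gngt2b (cone type) by 1.38. The widely expressed beta subunit genes gnb1a and gnb1b differed by 0.21 and 0.06 on their brightest probes, with the 4 gnb1b probes between -0.86 and 0.06.

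Of the genes that set cGMP and calcium, the guanylate cyclase activating protein genes guca1c and guca1b were higher in copper larvae by 2.67 and 2.12 (log2), and the cyclase gene gucy2d by 1.41. The recoverin gene rcvrna differed by -0.05, whereas rcvrn3 differed by 1.21. The channel genes cnga1a and cnga2a, at 0.01 and 0.16, did not pass the age test (limma adjusted p = 0.197 and 0.90). Each was read by 1 probe, and cnga1a had a low signal of 57.5 in copper and 60.9 in control larvae. Little can therefore be said here of the photoreceptor channel, and whether cnga2a serves in it was not tested. At 24 hpf both guca1c probes were lower in copper embryos, with a difference of -1.39 on the brighter, which became -0.98 under 75th-percentile scaling and -0.48 under normexp.

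Among the shutoff genes, the kinase gene grk1b differed most at 96 hpf, with 11741 in copper and 3015 in control larvae and a difference of 1.94 (log2). Phosducin pdcb, whose product binds transducin beta and gamma subunits, differed by 1.40. The rod arrestin gene saga differed by 1.26 and sagb by 1.02. The second cone arrestin gene, arr3b, differed by 0.74 on its brightest probe and was higher on 3 of 3 probes, near the 0.73 of arr3a. The RGS protein gene rgs9b, which speeds transducin shutoff, differed by 0.33.

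The opsins, a list that shares no gene with the 8, were higher in copper larvae for 7 of 8 genes by 2-fold, where 5.51% of all genes were. On their brightest probes rhodopsin (rho) differed by 1.49 and opn1mw2 by 2.19 (log2), and the members' median of 1.69 lay between these values. The 8 probes of rho ran from 0.83 to 2.02 and the 2 of opn1mw2 from 0.80 to 2.19. At 24 hpf 3 of the 6 opsins measured were lower by 2-fold and 0 higher, where 5.86% and 3.09% of all genes were. They were opn1mw1 (-2.325), opn1mw2 (-1.633) and opn1mw3 (-1.285), at low signals such as 23.6 in copper and 52.45 in control embryos for opn1mw1. The other opn1mw2 probe lay above 0 (0.804). Under 75th-percentile scaling 2 opsins stayed lower by 2-fold, and under normexp 0.

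**Figure D4:**
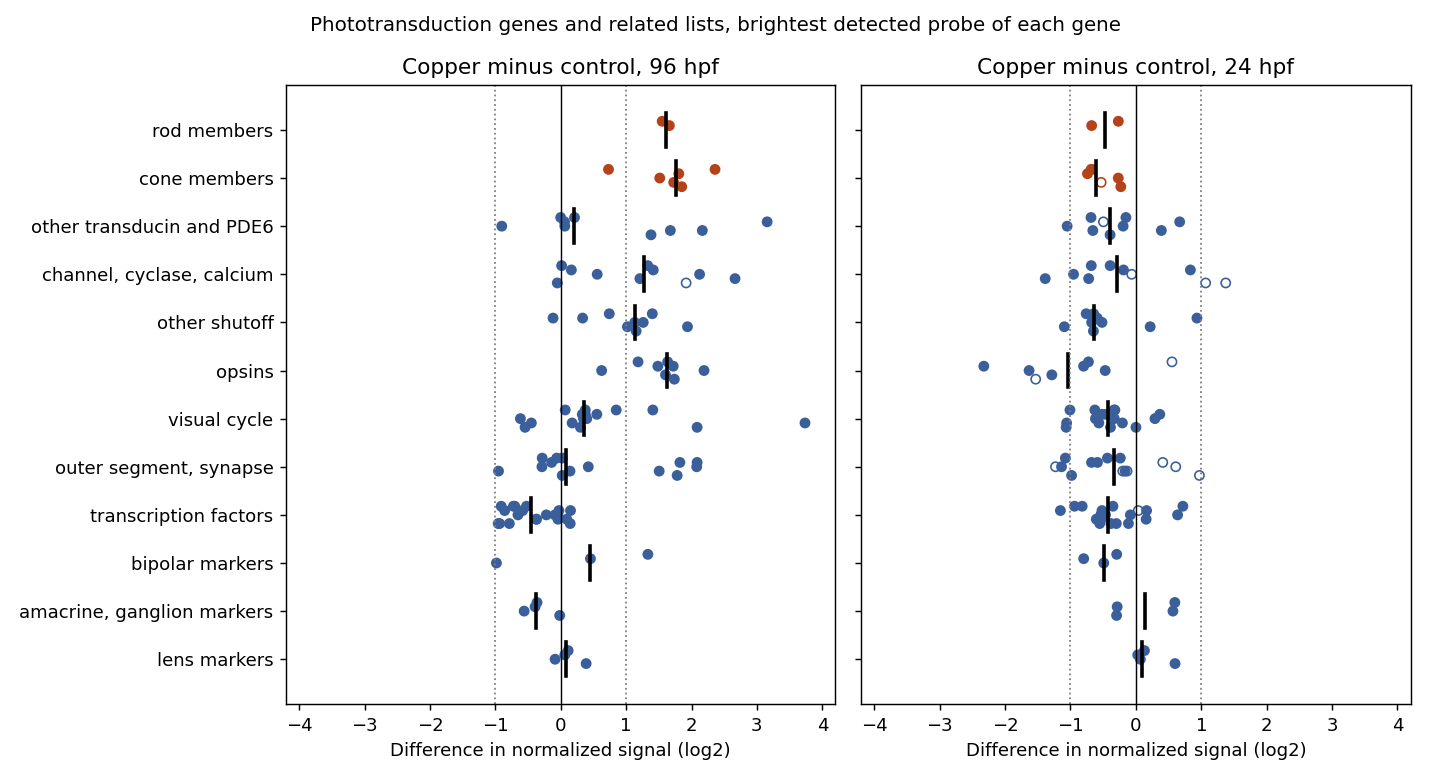
Copper minus control difference in normalized signal (log2, horizontal axis) at 96 hpf (left) and 24 hpf (right) for the brightest detected probe of each gene, with 1 list per line and a black bar at its median. Open circles were not well above background on both arrays of the age, and dotted lines mark 2-fold. At 96 hpf the rod and cone genes have medians of 1.61 and 1.77, while transcription factors and lens markers have medians of -0.45 and 0.09.

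Regulators of photoreceptor fate lay mostly below 0 at 96 hpf. Of 20 transcription factor genes of photoreceptors and eye development 0 passed 2-fold in either direction and 17 were below 0, with a median of -0.45 (log2), where 56.0% of all genes lay below 0. The homeobox gene crx, which drives photoreceptor genes, had 12871 in copper and 20590 in control larvae and differed by -0.70, with both probes below 0. The cone factor gene six7 differed by -0.03 and the rod factor gene nr2e3 by -0.73, and nr2e3 was chosen after its value was seen. The 3 probes of six7 ranged from -0.03 to 0.29. Both crx and six7 rose with age, by 6.47 and 7.08.

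Genes used as markers of lens, bipolar, amacrine and ganglion cells, Müller glia and pigment epithelium were compared beside the 8 genes. In RNA of whole embryos, signal of these markers from outside the eye cannot be separated from that of the eye. The 4 lens markers differed by -0.09 to 0.39 (log2) at 96 hpf and their summed normalized signal was 361545 in copper and 334704 in control larvae. The 3 bipolar markers vsx1, grm6b and cabp5a differed by -0.98, 0.45 and 1.33, and their summed signal, most of it from vsx1, was 10555 in copper and 19590 in control larvae. The 4 amacrine and ganglion cell markers were all below 0, with a sum of 2832 in copper and 3596 in control larvae. Of 3 genes listed for Müller glia the glutamine synthetase gene glula was higher in copper by 2-fold (1.26), rlbp1a differed by 0.38 and cahz by -0.56. The sum of the 3, most of it from glula, was 47716 in copper and 27037 in control larvae. Already at 24 hpf glula had 20189 in copper and 21524 in control embryos, and cahz 8915 and 4741. Neither glula nor cahz passed the age test (limma adjusted p = 0.39 and 0.954), while rlbp1a rose by 3.63 (limma adjusted p = 0.000177). The sum is therefore no measure of Müller glia alone. The 2 genes listed for pigment epithelium, rpe65a and rlbp1b, differed by 0.40 and 0.38. Their sum, most of it from rpe65a, was 11949 in copper and 9072 in control larvae. Whether rlbp1a marks Müller glia and rlbp1b pigment epithelium, or the reverse, was not tested. Of 25 genes in a wider list of other eye cells 3 were higher and 3 lower by 2-fold, where 5.51% and 1.67% of all genes were. Their brightest probes ran from -1.40 (prkcaa) to 2.07 (cabp5b). In this list the glial gene gfap differed by 0.04. The pigment cell genes pmela and dct differed by -0.515 and -0.82, and tyr by 0.795 at low signals (37.9 in copper and 24.3 in control larvae). The 3 probes of prkcaa disagreed, from -1.40 to 1.03, with 2 of them above 0. The summed signal of the 6 cone genes was 315210 in copper and 104943 in control larvae, and that of the 2 rod genes 10104 and 3375. Whether other cell types have a part in the copper difference of the 8 genes was not tested.

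The list of outer segment and synapse genes and that of visual cycle genes were each mixed at 96 hpf. Of 14 outer segment and synapse genes 5 were higher in copper by 2-fold, where 5.51% of all genes were, and the median was 0.08. The 5 were the disc rim genes prph2b (2.08 in log2), prph2a (1.82), rom1b (1.78) and rom1a (1.505), and the synaptotagmin syt5a (2.09). Each of these disc rim genes was higher on 3 of 3 probes. Of 16 visual cycle genes 3 were higher by 2-fold, beside the same 5.51% of all genes. The retinoid-binding protein gene rbp3, secreted by photoreceptors, had 9313 in copper and 736.8 in control larvae, a difference of 3.74. The isomerase genes rpe65a and rpe65b differed by 0.40 and -0.45.

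Pineal photoreceptors were followed through exorh, the opsin of that organ. It was bright on every array, with 43786 in copper and 41166 in control larvae, and 60291 in copper and 40876 in control embryos. Its differences by copper label were 0.05 at 96 hpf and 0.06 at 24 hpf (log2), and it did not pass the age test (0.21, limma adjusted p = 0.503). Its other probe differed by -0.21 and 0.72 at the same ages. Of 6 genes of a pineal list measured at 96 hpf 5 lay above 0, with a median of 0.67. Whether each of these genes, valopa among them, is expressed in the pineal organ was not tested. By 2-fold 2 were higher in copper, where 5.51% of all genes were, namely asmt (1.09) and valopa (1.77). By normexp these became 0.60 and 1.00, and by 75th-percentile scaling 0.96 and 1.66. The enzyme genes aanat2 and tph1a differed by -0.17 and 0.98 at 96 hpf. Signals of asmt were 74.8 in copper and 38.7 in control larvae and those of valopa 156.3 and 49.9, low beside exorh. A shorter list of 4 pineal markers (exorh, aanat2, asmt and otx5, the last at -0.37) had 2 below 0 at 96 hpf and a median of -0.06.

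Likeness to the mean profile of the 8 genes over the 4 arrays was measured as the Euclidean distance (log2) between profiles centred on their own mean, over 12332 genes. The nearest were gabra6a (0.18), the blue-cone opsin opn1sw2 (0.24) and gngt1 (0.28), followed by enam (0.47), fstl3 (0.50), gja12.1 (0.60), fhl5 (0.60) and gstp1.1 (0.62). Of the 8 genes themselves pde6ha was nearest (0.62) and pde6a farthest (4.94). This order is a description of 4 arrays and carries no test.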

How the data were processed

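Per the file headers, the authors' deposited scanner files hold processed spot intensity values with background subtracted and no normalization between arrays. Per the series' design text the arrays were labelled by the Quick Amp protocol (version 5.7) and read with Feature Extraction 11.0.1.1. Per the same text the authors quantile-normalized in GeneSpring GX 11.5.1 and took probes past a fold threshold. Log2 fold changes and absolute fold (a ratio) of listed probes are in the authors' deposited table, per the file headers. Its 16 columns of single-array values were not used.

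Here control spots and outlier-flagged spots were dropped (34 of 43603 probes lost), log2 processed intensity was averaged per probe and quantile-normalized over 4 arrays, and probes well above background on at least 2 arrays (36026) were compared. Probes were named by matching their RefSeq accession to the GRCz12tu gene table (25957 of 43569 probes named). A gene is represented by its brightest detected probe (mean over arrays). Age and copper were fitted with limma 3.58.1 (R 4.3.3), eBayes with trend, over all probes. In simulated arrays 66% of probes changed by 2 (log2) with age and 100% of those changed by 4 were called. Of 35826 unchanged probes 10 were called. The simulated noise was drawn from the variances of the same fit, so it cannot check those variances or the additive model. Tables were summarised in pandas 2.3.3 (numpy 2.4.6, Python 3.11.15).

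For a bound, the dim value was raised to the lowest normalized value that any probe well above background had on that array, if it lay under it. At its low end the deposited processed intensity is partly surrogate, and differences of dim probes are unreliable. The number of arrays limits the precision. The 8 genes and all lists were chosen with earlier results of these data known. All 8 genes are named. List genes are named by a rule, the 3 highest and 3 lowest copper differences at each age among those measured on both arrays and the 2 largest and smallest age differences of each list; sagb, pde6gb, rpe65a, vsx1, nr2e3, gngt2b at 96 hpf and some other values were added after they were seen. Alternatives were 75th-percentile scaling, normexp correction (offset 50) of deposited median spot and background intensities, other filters, eBayes without trend, the mean of detected probes, a 4-fold threshold, age alone, leaving out each array, the authors' deposited fold changes, and the treatment as file names give it. Probe sequences were not used here.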

Additional observations from a re-analysis of the deposited data

Results flagged for a closer look

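For 7 of the 8 genes the brightest probe was well above background on all 4 arrays and lay above 0 at 96 hpf and below 0 at 24 hpf in copper against control. The difference between the ages was not tested, since each group has 1 array. The copper difference at 96 hpf minus that at 24 hpf (log2) was 3.04 for pde6ha, 2.55 for gnat2, 2.34 for pde6a, 2.08 for pde6c, 1.82 for gnat1, 1.78 for gnb3b and 1.40 for arr3a. The opposite signs did not hold under 75th-percentile scaling for gnat1, gnb3b and pde6c, whose 24 hpf differences were then 0.15, 0.13 and 0.001. By the mean of detected probes gnat1 also lay above 0 at 24 hpf (0.05). The signs depended on the probe too, since the second probes of gnat1 (0.37) and gnat2 (0.21) lay above 0 at 24 hpf. Over all genes the median was -0.26 at 24 hpf and -0.05 at 96 hpf.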

How the results depend on the processing

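The count of 7 genes 2-fold higher in copper at 96 hpf was also 7 under 6 alternatives (75th-percentile scaling, normexp, detection on all 4 arrays, no filter, mean of detected probes, the authors' deposited fold changes). Leaving out the filter could not change this count, and detection on all 4 arrays changed only the probe of grk7a. The authors' fold changes come from the same arrays, also quantile-normalized, so they are no separate check. The count was 1 at 4-fold. With the treatment as the file names give it, 0 genes were higher, and the differences were -1.55 for gnat1, -1.66 for pde6a, -1.81 for gnat2, -1.51 for gnb3b, -2.36 for pde6ha, -1.85 for pde6c and -1.73 for grk7a. The count at 24 hpf was 0 under all 8 alternatives run, and that of copper over both ages 0 under all 6 run. In the main setting copper over both ages was called for 0 of all 36026 probes, so that count is not particular to the 8 genes. At 24 hpf no filter, the 4-fold threshold and the swapped treatment names could not have changed a count of 0. The age count of 8 genes was 7 to 8 when 1 array was left out in a fit of age alone, 7 without a filter, and 8 under the other alternatives. The call lost each time was that of pde6a, whose adjusted p ranged up to 0.146; the highest for the other 7 genes was 0.0288 (pde6ha). No paired analysis was possible because each group has a single array, so the groups share 1 replicate number. Signal over background limits the 24 hpf values, where 7 of 20 probes were dim on both arrays.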
